A study of Mus musculus with 2 samples.

Results

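The genes described here encode the subunits of the proteasome and its activators, inhibitor and assembly factors. They are all genes whose symbol starts with Psma, Psmb, Psmc, Psmd, Psme, Psmf or Psmg, without the symbols that mark pseudogenes, and they number 50 of the 43346 mouse genes analysed, with 224 transcripts. Paired-end libraries were made from the polyadenylated RNA of G1E-ER4, an immortalised mouse erythroid line labelled as male and postnatal, after 3 h in 10 nM 17beta-estradiol. The line lacks its own Gata1 function and carries the erythroid transcription factor GATA1 as a fusion to the estrogen receptor's ligand-binding part, so that estradiol switches the factor on; all libraries share this background and treatment. There was 1 group of 2 libraries, labelled biological replicates 1 and 2, but both point to the same cell sample entry, so their p-values and SDs may reflect technical spread. Cells without estradiol were not analysed here, so each value is a level after treatment in 1 line and not a response.

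The proteasome is the cell's main machine for degrading proteins tagged with ubiquitin. Its barrel, the 20S core, is built of outer alpha rings and inner beta rings, and the beta1, beta2 and beta5 subunits carry the caspase-like, trypsin-like and chymotrypsin-like cutting sites. The 19S regulatory particle caps the barrel: a ring of ATPases unfolds the substrate, and the base and lid receive and remove the ubiquitin chains. In immune cells, or after interferon, the subunits beta1i, beta2i and beta5i can replace their constitutive counterparts and form the immunoproteasome, which favours peptides for class I antigen presentation. Red cell precursors use ubiquitin-dependent degradation to clear much of their proteome as they mature.

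Replicate 1 held 31126956 expected counts and replicate 2 held 57853617, so low levels are better resolved in replicate 2. All 6 erythroid markers examined reached 1 TPM in both libraries, and none of the 4 macrophage, 4 lymphocyte and 2 fibroblast markers did. TPM expresses a gene's abundance relative to transcript length, with an equal sum for every library. The summed level of the erythroid markers was 2163 TPM in replicate 1 against 17370 TPM in replicate 2. The alpha globin gene Hba-a1 stood at 149 and 6606 TPM, the beta globin gene Hbb-bs at 863 and 9484 TPM, and Gata1 at 190 and 799 TPM. The erythroid factor genes Klf1 and Tal1 went the other way, at 786 and 351 TPM and at 120 and 79.1 TPM, and the erythropoietin receptor gene Epor stood at 54.8 and 51.5 TPM. Because the line carries a GATA1 fusion, the counts given to Gata1 may come from that fusion, which was not tested. The libraries thus differed in some erythroid genes, chiefly globins, and the part of this in the differences between them given below was not tested.

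Promoter windows from RefSeq, on the build GRCm38.p6 and running from 250 bases before to 50 bases after the start that RefSeq gives, were found for 42 of the 50 genes. Windows are shown for Psmb4, the gene with the highest level in replicate 1, and for the catalytic subunits of the barrel and their immunoproteasome counterparts, since the comparison of these pairs is the main result; none was found for Psmb7. The other genes without a window were Psma8, Psmb1, Psmb2, Psmc3, Psmd3, Psmd7 and Psmg2. Capitals mark matches, on either strand, to TGACNNNGC, the core of the antioxidant response element that NRF1 and NRF2 bind; TTCNNNGAA, the gamma-activated site of interferon-responsive genes; GAAANNGAA, the core of the interferon-stimulated response element; or CCGGAA, an ETS factor motif. The windows are Psmb4 (beta7, chr3:94886909-94887208, minus strand), Psmb5 (beta5, chr14:54617946-54618245, minus strand), Psmb6 (beta1, chr11:70525107-70525406, plus strand), Psmb8 (beta5i, chr17:34197945-34198244, plus strand), Psmb9 (beta1i, chr17:34187281-34187580, minus strand) and Psmb10 (beta2i, chr8:105938343-105938642, minus strand).
Psmb4: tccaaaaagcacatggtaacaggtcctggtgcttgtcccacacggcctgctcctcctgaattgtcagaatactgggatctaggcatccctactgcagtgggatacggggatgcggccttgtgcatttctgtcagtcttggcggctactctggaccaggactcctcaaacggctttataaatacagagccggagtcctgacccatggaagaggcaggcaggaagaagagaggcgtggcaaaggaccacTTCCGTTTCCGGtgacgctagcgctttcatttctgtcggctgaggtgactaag
Psmb5: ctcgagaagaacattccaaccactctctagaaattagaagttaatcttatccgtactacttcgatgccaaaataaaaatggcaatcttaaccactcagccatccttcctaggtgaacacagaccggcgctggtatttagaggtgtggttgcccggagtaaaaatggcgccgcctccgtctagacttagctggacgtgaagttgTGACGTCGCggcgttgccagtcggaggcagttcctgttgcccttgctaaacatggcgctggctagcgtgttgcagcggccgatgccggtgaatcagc
Psmb6: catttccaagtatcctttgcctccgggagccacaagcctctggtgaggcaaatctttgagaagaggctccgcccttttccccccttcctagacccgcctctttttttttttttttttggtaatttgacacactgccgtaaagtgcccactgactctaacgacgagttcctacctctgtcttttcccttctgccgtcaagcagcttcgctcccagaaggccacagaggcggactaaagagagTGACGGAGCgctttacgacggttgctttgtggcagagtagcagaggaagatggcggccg
Psmb8: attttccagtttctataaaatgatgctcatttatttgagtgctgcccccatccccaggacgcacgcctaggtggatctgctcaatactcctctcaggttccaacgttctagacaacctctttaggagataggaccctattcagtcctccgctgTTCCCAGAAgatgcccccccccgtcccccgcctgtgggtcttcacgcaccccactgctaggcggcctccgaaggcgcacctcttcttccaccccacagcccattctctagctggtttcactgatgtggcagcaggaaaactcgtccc
Psmb9: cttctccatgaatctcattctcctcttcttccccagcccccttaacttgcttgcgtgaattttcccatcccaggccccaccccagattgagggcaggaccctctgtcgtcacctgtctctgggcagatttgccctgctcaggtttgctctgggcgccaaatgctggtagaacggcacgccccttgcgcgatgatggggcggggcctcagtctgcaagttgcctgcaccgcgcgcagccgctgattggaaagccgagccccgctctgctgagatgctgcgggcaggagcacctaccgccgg
Psmb10: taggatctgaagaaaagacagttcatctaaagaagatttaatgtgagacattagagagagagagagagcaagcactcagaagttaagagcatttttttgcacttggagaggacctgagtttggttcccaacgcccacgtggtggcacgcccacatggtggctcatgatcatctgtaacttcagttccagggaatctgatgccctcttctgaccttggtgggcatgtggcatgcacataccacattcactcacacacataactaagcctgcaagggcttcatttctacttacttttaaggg

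The windows of Psmb5 and Psmb6 each held 1 match to TGACNNNGC, that of Psmb8 a match to TTCNNNGAA, and that of Psmb4 overlapping matches to GAAANNGAA and CCGGAA. The windows of Psmb9 and Psmb10 held none of the 4 motifs. Of the windows shown, those of Psmb8 and Psmb9 lie inside the GENCODE gene spans given below, so the bases before those gene starts were not searched. The shares that follow are of genes, and a gene with several windows was counted if any of them matched. Across the 42 genes, TGACNNNGC occurred in 6 (14.3%), against 14.0% of all 27025 genes with a window and 17.1% of the 6763 detected in both libraries. The 6 were Psmb5, Psmb6, Psmc6, Psmd9, Psmd12 and Psme4. The longer form TGACTCAGC occurred in none of the 42 and in 0.503% of all genes with a window. GAAANNGAA occurred in 7 (16.7%, against 9.76% of all and 7.79% of detected genes), and TTCNNNGAA in 3 (7.14%, against 9.55% and 7.59%). CCAAT occurred in 15 (35.7%, against 41.1% and 44.0%). CCGGAA occurred in 21 (50%), against 16.7% of all genes with a window and 37.7% of detected genes. The GATA motif AGATAA occurred in 3 (7.14%, against 12.7% and 7.14%), and GCATGCGC, a motif of the nuclear respiratory factor, in 3 (7.14%, against 3.05% and 7.10%). The median GC content of the windows was 57.9% for the proteasome genes, 61.7% for detected genes and 52.8% for all. Each match is a description of letters in a window and does not show that a factor binds there.

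Proteasome RNA was found for nearly the whole gene set. A level of at least 1 TPM in both libraries was reached by 45 of the 50 genes, including all 31 constitutive subunits of the 20S core and the 19S particle. Together the 50 genes took 0.406% of all TPM in replicate 1 and 0.392% in replicate 2. In bulk RNA, fewer cells with a message and less of it per cell cannot be told apart. The 5 genes below 1 TPM were the immunoproteasome subunits Psmb8 and Psmb9, the tissue-specific subunits Psma8 and Psmb11, and Psme2b, a near copy of Psme2. Psma8 encodes the alpha subunit of the testis and Psmb11 the beta5t subunit of the thymus. Both had 0 counts in both libraries, which with a limit of 3 counts allows up to 0.0777 TPM of Psma8 in replicate 1 and 0.0371 TPM in replicate 2.

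**Figure D1:**
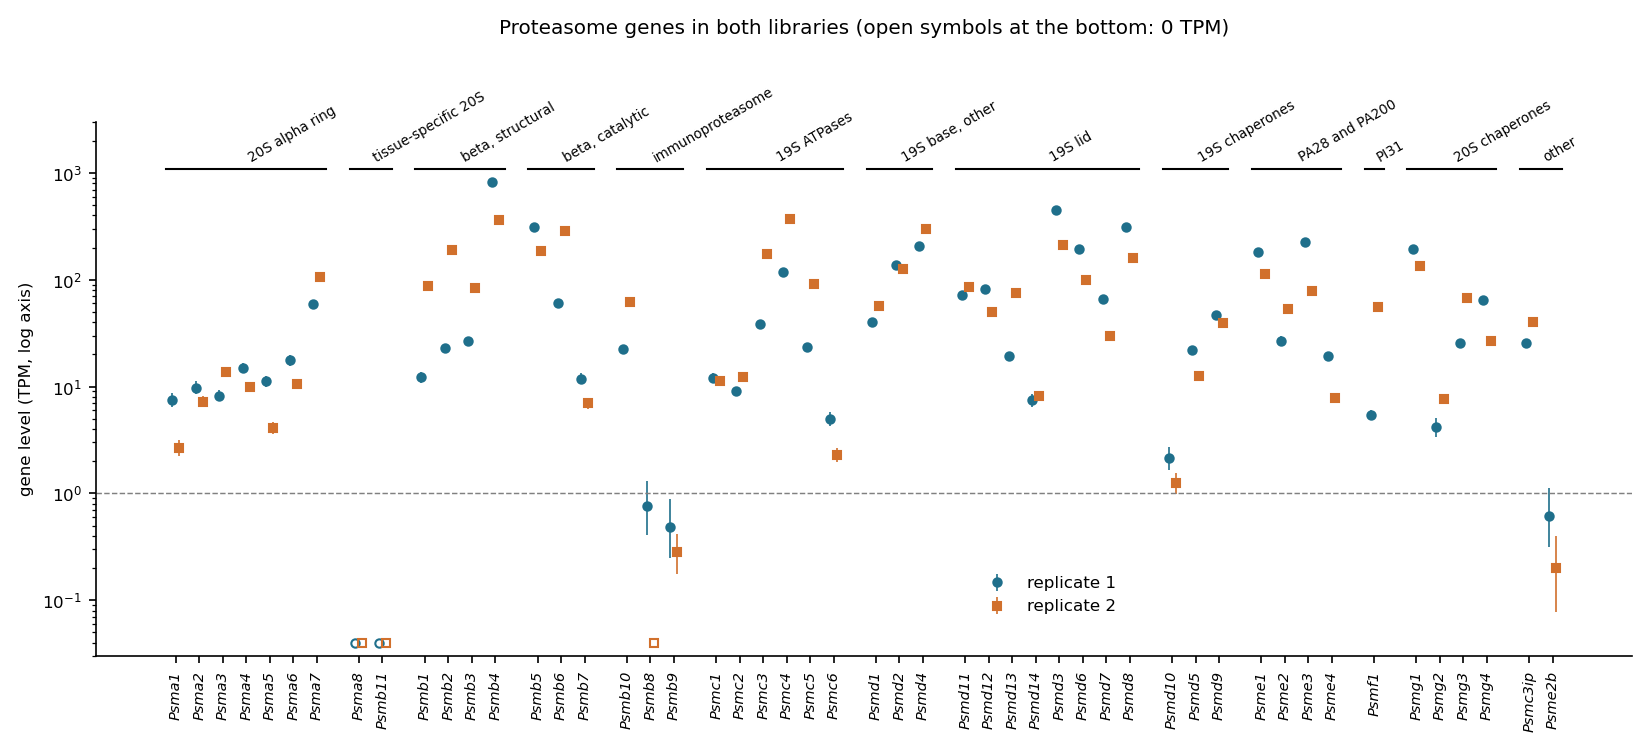
Level of each of the 50 proteasome genes in TPM (log axis) in replicate 1 (circles) and replicate 2 (squares), grouped by role, with exact Poisson 95% counting intervals; open symbols at the bottom stand for 0 TPM and the dashed line for 1 TPM. The 31 constitutive subunits all lie above the line, while Psmb8 and Psmb9 lie below it and Psmb10 above it.

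The catalytic sites differed in which of their paired subunits was expressed. At beta1 and beta5 the estimated excess of the constitutive gene over its immunoproteasome counterpart was 123-fold or more in both libraries. The lowest limit of the counting intervals given below for these sites was 68.6-fold, at beta1 in replicate 1. At beta2 the order was the other way: Psmb10 exceeded Psmb7 in both. These are levels of different genes compared per length, and RNA does not give the subunits' amounts in assembled particles. An exact permutation test has a smallest p of 0.333 with 2 values a side, so none was run, and the intervals below are exact 95% counting intervals within a library.

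At the beta1 site, Psmb6, the constitutive caspase-like subunit (chr11:70525367-70527858), stood at 60.9 TPM in replicate 1 against 286 TPM in replicate 2. Psmb9, its counterpart beta1i (chr17:34181987-34187764), stood at 0.49 and 0.28 TPM, from 11 and 23 counts. Psmb6 was thus higher in both libraries, with a per-length ratio of 123 in replicate 1 (interval 68.6 to 248) and 1031 in replicate 2 (687 to 1627). The log2 ratio of TPM with 1 added to each level was 6.59 ± 1.72 (SD, n = 2), where the ratio is limited by the added 1. For Psmb9 the TPM was higher in replicate 1 and the scaled count was not, since the effective length assigned to the gene was 897 bases in replicate 1 and 1581 bases in replicate 2.

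At the beta5 site, Psmb5, the constitutive chymotrypsin-like subunit (chr14:54614119-54618022), stood at 311 TPM in replicate 1 against 188 TPM in replicate 2. Psmb8, its counterpart beta5i (chr17:34197721-34201454), stood at 0.77 TPM in replicate 1, from 13 counts, and had no count in replicate 2, where 3 counts would be worth 0.0441 TPM. Psmb5 was higher by a factor of 403 in replicate 1 (interval 235 to 757). In replicate 2 the factor was 4261 with Psmb8 set at 3 counts, which is not a lower bound. The lower exact limit in replicate 2 was 3464, and both values rest on an effective length of 1298 bases for Psmb8 there, against 679 bases in replicate 1. The authors' own interval for Psmb8 in replicate 2 reached 0.116 TPM, above the value of 3 counts. The thymic counterpart Psmb11 lies 3410 bases from Psmb5 on chromosome 14 and had no count. Of the 40-base stretches in the transcript of Psmb5, 64.2% also occur in 4 other annotated genes, chiefly Gm3375. No count was found for these 4 in either library, so all counts found for this family were those of Psmb5. A gene missing from the models counted would also give 0 here. For Psmb8, 12.6% of these stretches occur in 108 other annotated genes. The highest count among the 108 was 25123 in replicate 1 and 41567 in replicate 2. The effect of dividing reads between Psmb8 and these genes was not tested.

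At the beta2 site, Psmb7, the constitutive trypsin-like subunit (chr2:38588036-38644087), stood at 11.9 TPM in replicate 1 against 6.97 TPM in replicate 2. Psmb10, its counterpart beta2i (chr8:105935735-105938444), stood at 22.3 and 62.6 TPM, from 627 and 3668 counts. The ratio of Psmb7 to Psmb10 was 0.533 in replicate 1 (interval 0.462 to 0.615) and 0.111 in replicate 2 (0.0991 to 0.125). Neither interval reached equality, and the order was the same in both libraries, with a log2 ratio of -1.93 ± 1.51 (SD, n = 2). No 40-base stretch of the transcripts of Psmb10 occurs in another annotated gene. Of those of Psmb7, 9.94% occur in 3 other genes, chiefly Nek6, named here after its values were seen, with 2619 and 3403 counts against 281 and 330 for Psmb7. The effect of dividing reads between these genes on the ratio was not tested. Both genes were read mainly as protein-coding transcripts, 100% of the TPM of Psmb10 in both libraries and 87.0% and 80.9% of that of Psmb7.

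As a share of the TPM of each pair, the immunoproteasome gene took 0.798% and 0.0978% at beta1, 0.247% and 0 at beta5, and 65.2% and 89.98% at beta2, in replicates 1 and 2. Over the 3 sites together the immunoproteasome genes took 5.78% and 11.6% of the TPM. Psmb10 made up 94.7% and 99.6% of that immunoproteasome sum, so a summed value over the 3 genes is in these libraries a value of Psmb10. Psmb8 and Psmb9 lie side by side on chromosome 17 with the peptide transporter genes Tap1 and Tap2, within the class II region of the major histocompatibility complex, while Psmb10 lies on chromosome 8.

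**Figure D2:**
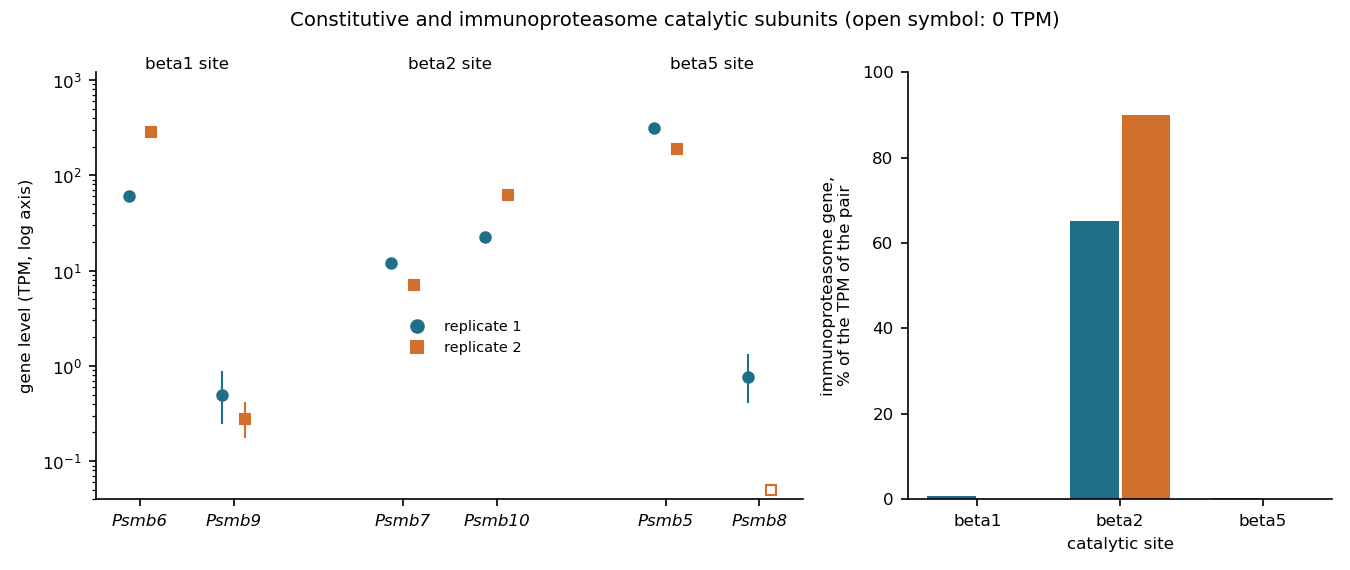
Left, levels in TPM (log axis) of the constitutive and immunoproteasome genes of each catalytic site in both libraries, with exact Poisson 95% counting intervals and an open symbol for 0 TPM; right, the immunoproteasome gene's percent of the TPM of the pair. At beta2 the immunoproteasome gene takes 65.2% and 89.98%, and at beta1 and beta5 under 1% in both libraries.

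The genes that work with the immunoproteasome gave mixed levels. Of 12 genes of class I antigen presentation and interferon control, 6 reached 1 TPM in both libraries. The transporter genes differed: Tap2, which lies 2072 bases from Psmb8, stood at 36.4 and 39.4 TPM. Tap1, which overlaps the span of Psmb9 and lies 495 bases from Psmb8, stood at 0.56 and 1.21 TPM. B2m, the light chain of class I molecules, stood at 14.8 and 9.76 TPM, and the class I heavy chain genes H2-D1 and H2-K1 at 59.0 and 51.4 TPM and at 0.79 and 0 TPM. H2-K1 had 28 counts in replicate 1 and none in replicate 2, the same pattern over the libraries as Psmb8. The lymphocyte marker Ptprc likewise had 9 counts and none, and the summed level of the 4 lymphocyte markers was 1.02 and 0.26 TPM and that of the 4 macrophage markers 0.78 and 0.91 TPM, with Lyz2, Adgre1 and Cd3e at 0 in both. Whether the counts of Psmb8 came from other cells was not tested. The regulators of the interferon response Irf1 and Nlrc5 stood at or below 0.12 TPM in both libraries. Irf8 had 1 count in replicate 1 and none in replicate 2.

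The subunits of the barrel did not share a common RNA level, nor did those of the cap, although each of these parts contains its own subunits in equal numbers. Within the barrel the highest level exceeded the lowest 110-fold in replicate 1 and 134-fold in replicate 2, and within the cap 89.4-fold and 161-fold. Over the 31 constitutive subunits, the highest level exceeded the lowest 165-fold in replicate 1 and 161-fold in replicate 2. The SD of log2(TPM + 1) over these genes was 1.95 and 2.12, and the median 26.6 and 84.1 TPM, against 20.3 and 19.1 TPM for all detected genes. In replicate 1 Psmb4 was highest and Psmc6 lowest, and in replicate 2 Psmc4, with a limit given below, and Psmc6. The order was partly shared: 5 of the 8 highest genes were the same in both libraries (Psmb4, Psmb5, Psmc4, Psmd3 and Psmd4), as were 6 of the 8 lowest (Psma1, Psma2, Psma5, Psmb7, Psmc6 and Psmd14). Spearman's correlation between the libraries across these 31 genes was 0.82, and 0.88 across the 9269 genes whose mean reached 1 TPM, given as descriptions, since genes are not replicates.

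**Figure D3:**
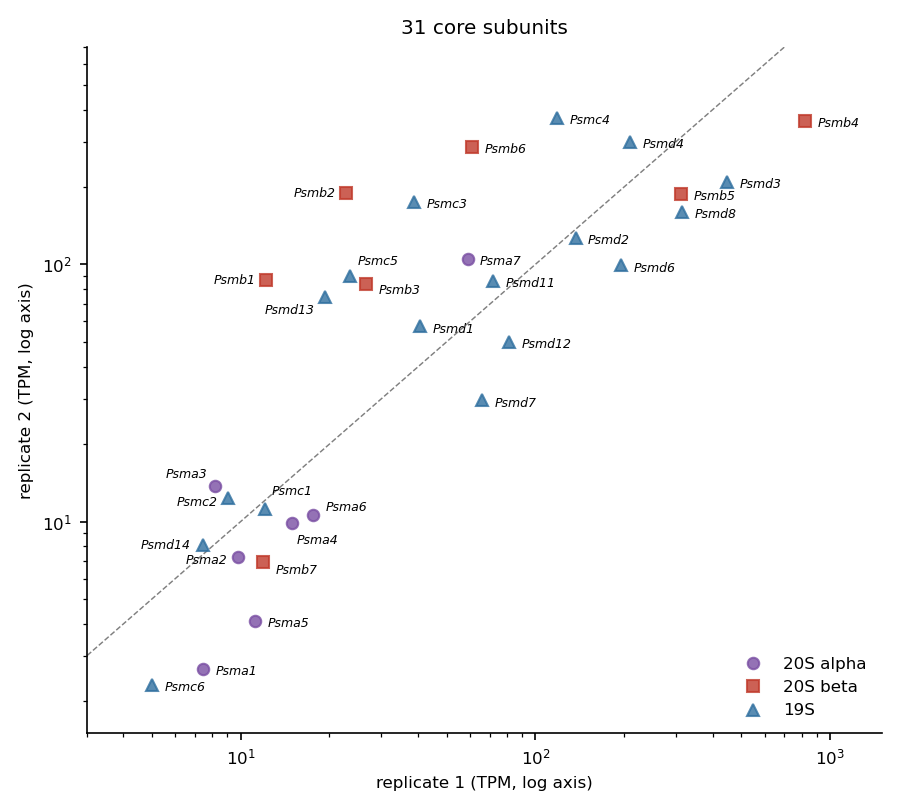
Level of each of the 31 constitutive subunits in replicate 1 (horizontal, TPM, log axis) against replicate 2 (vertical, TPM, log axis), with alpha subunits as circles, beta subunits as squares and 19S subunits as triangles; the dashed line marks equal TPM. A group with Psmb1, Psmb2, Psmb3, Psmb6, Psmc3, Psmc5 and Psmd13 lies well above the line, and the alpha subunits other than Psma7 lie at the low end.

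The alpha ring forms the gate of the barrel. Its 7 genes had a median of 11.2 TPM in replicate 1 against 9.86 TPM in replicate 2, at percentiles 36.6 and 34.5 of detected genes. Psma7, the alpha4 subunit, stood above the others at 58.8 and 105 TPM. The other 6 lay between 7.46 and 17.6 TPM in replicate 1 and between 2.68 and 13.7 TPM in replicate 2. Psma1, alpha6, was lowest in both, at 7.46 and 2.68 TPM. Part of the sequence of some alpha genes is not their own: 55.5% of the 40-base stretches of Psma5 transcripts, 17.8% of those of Psma4 and 16.8% of those of Psma3 occur in other annotated genes, so their counts are less certain, and each of these 3 genes had a count that was not whole in at least 1 library.

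The structural beta subunits held both high and low levels. Psmb4, the beta7 subunit (chr3:94884093-94886961), stood at 823 TPM in replicate 1 against 360 TPM in replicate 2. Psmb1, beta6, stood at 12.2 and 86.7 TPM, Psmb2, beta4, at 22.8 and 189 TPM, and Psmb3, beta3, at 26.6 and 84.1 TPM. Psmb4 was higher in replicate 1, and the other 3 were higher in replicate 2. The ratio of the highest to the lowest of the 4 was accordingly 67.3 in replicate 1 and 4.28 in replicate 2. Psmb7, at 11.9 and 6.97 TPM, was the lowest of the 3 constitutive catalytic genes in both libraries.

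The 6 ATPases unfold substrates and thread them into the barrel. Psmc4 (Rpt3) was highest in both libraries, at 119 and 372 TPM, and Psmc6 (Rpt4) lowest, at 5 and 2.31 TPM. Psmc3 (Rpt5) stood at 38.8 and 175 TPM and Psmc5 (Rpt6) at 23.4 and 90.4 TPM, both higher in replicate 2. Psmc1 (Rpt2) stood at 12.1 and 11.2 TPM and Psmc2 (Rpt1) at 9.04 and 12.4 TPM. Genes of this ring, which enters the particle as a single hexamer, thus differed 23.7-fold in replicate 1 and 161-fold in replicate 2. The level of Psmc4 rests mainly on Psmc4-206, which took 63.8% and 63.2% of the gene's TPM. It was counted at 587 bases, where GENCODE M21 gives it 1244 bases. The longer Psmc4-201, of 1440 bases, stood at 19.7 and 42.1 TPM. The effect of the counted length on the rank of Psmc4 and on this spread was not tested.

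The other 3 base subunits spread 5.16-fold in replicate 1 and 5.21-fold in replicate 2. Psmd1 (Rpn2) and Psmd2 (Rpn1) form the scaffold of the base, and Psmd4 (Rpn10) is a ubiquitin receptor. They stood at 40.5 and 57.4 TPM, 137 and 127 TPM, and 209 and 299 TPM. The second intrinsic ubiquitin receptor, Adrm1 (Rpn13), which the symbol rule does not take in, stood at 793 and 571 TPM, above every one of the 50 genes but Psmb4 in replicate 1, and above all 50 in replicate 2.

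The 8 lid genes had medians of 76.6 and 80.5 TPM. Psmd3 (Rpn3) was the highest, at 447 and 210 TPM, and Psmd8 (Rpn12) followed in replicate 1 at 315 TPM, with 159 TPM in replicate 2. Psmd14 (Rpn11), the deubiquitinase that cuts chains from substrates before they enter, was the lowest, at 7.44 and 8.09 TPM. Its partner in the same catalytic dimer, Psmd7 (Rpn8), stood at 66.0 and 29.6 TPM. Psmd13 (Rpn9) stood at 19.3 and 74.5 TPM, the only lid gene at least 2-fold higher in replicate 2. Psmd11 (Rpn6), which bridges lid and barrel, stood at 71.7 and 86.5 TPM, and Psmd12 (Rpn5) at 81.5 and 49.8 TPM. Sem1, the smallest lid protein and also outside the symbol rule, stood at 4.23 and 62.8 TPM, and its scaled count was 18.6-fold higher in replicate 2.

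Alternative caps and the inhibitor were expressed alongside. Psme1 and Psme2 encode PA28 alpha and beta, which form the interferon-responsive cap, Psme3 encodes the nuclear cap PA28 gamma, and Psme4 encodes PA200. Psme1 stood at 183 and 112 TPM, Psme2 at 26.8 and 52.7 TPM, Psme3 at 227 and 78.9 TPM and Psme4 at 19.4 and 7.78 TPM. The ratio of Psme3 to Psme1 was 1.24 in replicate 1 (interval 1.19 to 1.28) and 0.703 in replicate 2 (0.680 to 0.728), so the order of these gene levels differed between libraries, with a log2 ratio of -0.10 ± 0.57 (SD, n = 2). In protein-coding transcripts alone Psme3 was higher in both, at 227 against 93.9 TPM in replicate 1 and 78.8 against 60.1 TPM in replicate 2. Psme1 exceeded Psme2, its partner in the same ring, 6.86-fold in replicate 1 and 2.13-fold in replicate 2 by gene level. The gap was wider in protein-coding transcripts alone, where Psme2 stood at 2.82 and 4.80 TPM. Of the 40-base stretches of Psme2, 31.0% occur in other genes, one of which is Psme2b (chr11:48945354-48946190), with 10.6 and 7.23 expected counts that were divided with it. Psmf1, the inhibitor PI31, stood at 5.48 and 55.4 TPM.

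The chaperones of assembly fell into pairs with unlike levels. PAC1 and PAC2 act as a heterodimer in alpha ring assembly, and so do PAC3 and PAC4. Psmg1 (PAC1) stood at 193 and 134 TPM and Psmg2 (PAC2) at 4.20 and 7.61 TPM. Psmg3 (PAC3) stood at 25.7 and 67.3 TPM and Psmg4 (PAC4) at 64.4 and 26.6 TPM, so the order of this pair turned between libraries. Pomp, the maturation factor of the beta ring, stood at 12.5 and 9.57 TPM. The 3 chaperones of the 19S base covered by the rule were Psmd9 at 47.3 and 39.1 TPM, Psmd5 at 22.0 and 12.6 TPM and Psmd10 at 2.13 and 1.24 TPM. Psmc3ip, which shares its name with the family but is a cofactor of meiotic recombination, stood at 25.4 and 40.2 TPM.

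Levels differed between the 2 libraries beyond counting noise for most of these genes, as they did for most genes. Expected counts were divided by library sizes scaled with TMM factors from edgeR (scaled counts), and a two-sided exact binomial test with Benjamini-Hochberg adjustment was run over 10635 genes. It called 80.7% of all genes and 42 of the 46 proteasome genes tested (91.3%). Of these 42, 19 were higher in replicate 1 (37.4% of all genes tested were) and 23 in replicate 2 (43.3% of all were). The test compares 2 libraries of the same condition and measures counting noise only, so a call is no difference between conditions. The median log2 ratio of replicate 1 to replicate 2 was -0.15 over the proteasome genes and -0.06 over all, and the median size of the log2 ratio was 0.80 against 0.59.

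The large differences by scaled counts lay on the side of replicate 2. By this measure 14 of the 46 genes (30.4%) were at least 2-fold higher in replicate 2, where 19.5% of all genes were, and 0 were so in replicate 1, where 7.32% of all were. The ratio of TPM gave another split: of 45 genes at 1 TPM or more in both libraries, 11 were at least 2-fold higher in replicate 2 (13.8% of 8759 such genes) and 9 in replicate 1 (18.5%). The 9 were Psma1, Psma5, Psmb4, Psmc6, Psmd3, Psmd7, Psme3, Psme4 and Psmg4. The median log2 ratio of TPM was 0.12 over the proteasome genes and 0.32 over all 8759 genes, and the median gene's log2 ratio was 0.35 higher by TPM than by scaled counts. Relative to the median of all genes, that of the proteasome genes was lower by 0.09 on the scaled-count scale and by 0.20 on the TPM scale. The direction turned between the 2 measures for 4 of the 45 genes (8.89%, against 17.5% of the 8759), Psmc1, Psmd2, Psmd9 and Psmd11.

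Genes higher in replicate 2 by both measures and at least 2-fold were found in the beta ring, the ATPase ring and the lid, and included the inhibitor and an assembly chaperone. Psmb1 was 8.87-fold higher by scaled counts, from 273 and 4016 expected counts. Psmc3 was 8.65-fold, Psmb2 7.63-fold, Psmf1 7.53-fold and Psmb6 6.03-fold higher. Psmd13 was 5.03-fold, Psmc5 4.86-fold, Psmb3 3.93-fold, Psmc4 3.56-fold, Psmb10 3.54-fold and Psmg3 3.23-fold higher. The remaining genes past 2-fold by scaled counts alone were Psmg2 (2.27-fold), Psme2 (2.13-fold) and Psmc3ip (2.06-fold). By role, 3 of 4 structural beta genes, 1 of 3 constitutive catalytic genes, 3 of 6 ATPases, 1 of 8 lid genes and none of the 7 alpha or 3 other base genes were among them.

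On the side of replicate 1 the scaled-count differences were smaller. Psmg4 was 1.98-fold higher there (adjusted p = 2.46e-30 by the exact binomial test with Benjamini-Hochberg adjustment), Psme4 1.94-fold and Psma1 1.94-fold. The abundant genes Psmd3, Psmb4 and Psme3 were 1.701-fold, 1.67-fold and 1.76-fold higher. Psma2, Psmb9, Psmd10 and Psmd11 did not pass the test. For Psma2 the ratio of replicate 1 to replicate 2 was 0.10 on the log2 scale (95% interval -0.16 to 0.37), and for Psmd11 it was 0.01 (-0.04 to 0.07). For Psmd10 it was 0.42 (-0.05 to 0.91) and for Psmb9 -0.30 (-1.53 to 0.75), where the intervals leave room for a difference.

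**Figure D4:**
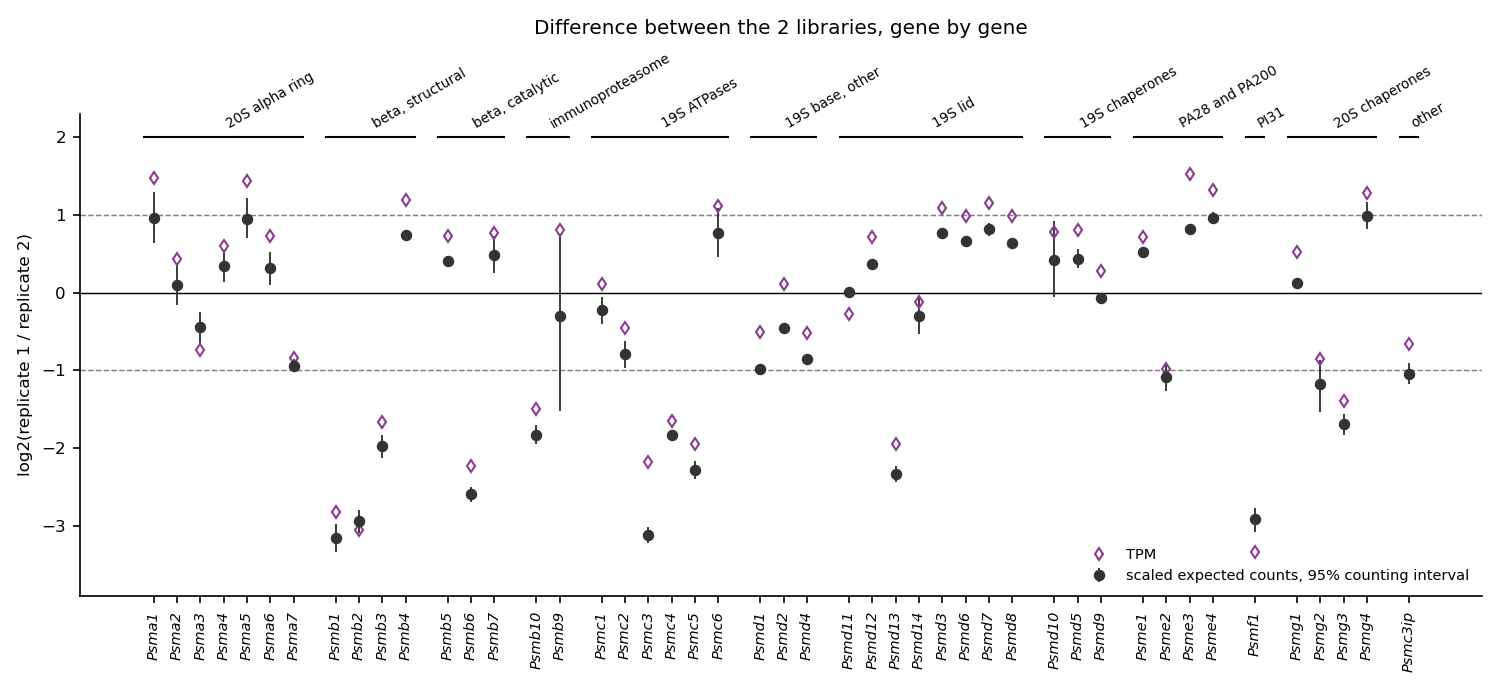
Log2 ratio of replicate 1 to replicate 2 for the 46 genes tested, by scaled expected counts (filled circles, with 95% counting intervals) and by TPM (open diamonds), grouped by role; dashed lines mark a 2-fold difference. Psmb1, Psmc3, Psmb2 and Psmf1 lie lowest by scaled counts, and most diamonds lie above their circles.

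The proteasome genes at least 2-fold higher in replicate 2 had shorter and more GC-rich main transcripts than the rest, by the sequences of GENCODE M21. Their median length was 1268 against 1430 bases and their median GC content 53.9% against 49.2%. Over all genes the same split gave 1514 against 2000 bases and 53.0% against 52.3%. These lengths are not always those of the models counted. The main transcript of Psmb1 has 1758 bases in M21 and was counted at 1036, that of Psmc4 1244 against 587, and that of Psma2 2911 against 944. The part of length and GC content in the differences was not tested. Psmb1, the gene with the largest ratio by scaled counts, was counted as 1 transcript, so no reads were divided between counted transcripts of this gene. Transcripts of Psmb1 missing from the models counted could still matter, which was not tested. A small part of its sequence (1.96%) also occurs in 3 other annotated genes, chiefly Gm14830, with 257 and 672 counts. The effect of dividing reads between these genes on the ratio was not tested.

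Transcript use showed which gene levels stand for messages that encode the subunit. For 39 of the 45 detected genes (86.7%) the same transcript was the most abundant in both libraries, as for 79.6% of 8281 detected protein-coding genes. In 25 of the 45 genes, protein-coding transcripts made up at least 90% of the gene's TPM in both libraries. The median coding share of the 45 was 95.9% in replicate 1 and 98.0% in replicate 2. Over detected protein-coding genes it was higher, at 99.7% and 99.5%. In 4 genes (8.89%, against 15.5% of detected protein-coding genes) they made up under 50% in both: Psma3, Psmd6, Psme2 and Psmc3ip. The division of reads between transcripts that overlap is an estimate and has its own error, which the counting intervals do not cover.

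Psmd6 (Rpn7), a lid subunit (chr14:14112174-14120984), showed the same division in both libraries. Its transcript Psmd6-203, of 755 bases in 2 exons and annotated as a retained intron, took 83.5% of the gene's TPM in replicate 1 and 84.0% in replicate 2. The protein-coding transcript Psmd6-201 stood at 32.1 and 15.8 TPM, where the whole gene stood at 196 and 99.01 TPM. Counted by its coding transcript alone, Psmd6 was thus at 16.4% and 16.0% of its listed level. Psme2 was similar in class and not in transcript: coding transcripts took 10.5% and 9.10%, and the most abundant transcript was Psme2-209 in replicate 1 (80.2%) and Psme2-205 in replicate 2 (43.8%), both retained introns. Its neighbour and partner Psme1 gave 51.2% and 53.3% to the coding transcript Psme1-208, with 48.2% and 46.0% in retained introns. For Psma3, coding transcripts took 36.8% and 12.5%, and the retained intron Psma3-203 35.8% and 67.2%.

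In 6 genes the most abundant transcript differed between the libraries, Psma1, Psmb2, Psmc3, Psme2, Psmf1 and Psmc3ip. Psmb2-202, a processed transcript of 547 bases without a coding label, took 2.25% of Psmb2 in replicate 1 and 63.9% in replicate 2. The coding transcript Psmb2-201 stood at 20.7 and 68.3 TPM, so the gene was higher in replicate 2 on either count. Psmf1-202, which is coding, took none of the gene's TPM in replicate 1 and 77.8% in replicate 2. In Psmc3, Psmc3-210, a coding transcript of 944 bases, took 69.7% in replicate 1 and 0.57% in replicate 2, while the longer Psmc3-202 took 22.3% and 62.3% and Psmc3-203 none and 35.1%. The ratio of the gene between libraries therefore differed by measure, 8.65-fold by scaled counts with 38.8 and 175 TPM. Psma1-203 took 52.7% and 3.87%. In Psmd11 the main transcript was the same, but Psmd11-206, annotated as a target of nonsense-mediated decay, took none of the TPM in replicate 1 and 42.5% in replicate 2. These differences rest on 1 library each and have no replicate check.

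**Figure D5:**
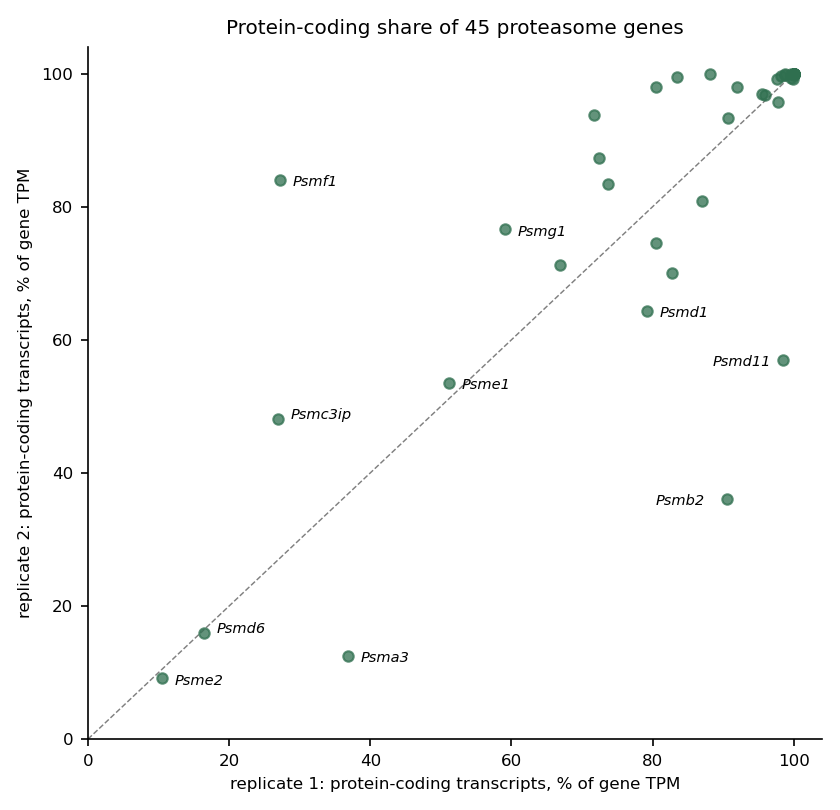
Percent of the gene's TPM in protein-coding transcripts, in replicate 1 (horizontal) against replicate 2 (vertical), for the 45 genes at 1 TPM or more in both libraries; the dashed line marks equal percent. Psmd6, Psme1 and Psme2 lie near the line at low or middle values, while Psmf1 lies far above it and Psmb2, Psmd11 and Psma3 below it.

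Most genes of the pathway that feeds the proteasome were detected. All 4 ubiquitin genes were detected, with Ubb at 196 TPM in replicate 1 against 2199 TPM in replicate 2. By scaled counts 3 of the 4 were higher in replicate 2 and 1, Rps27a, in replicate 1. Of all genes tested, 43.3% were higher in replicate 2 and 37.4% in replicate 1, so the counts for these short lists are descriptions only. Uba1, the main ubiquitin-activating enzyme, stood at 144 and 210 TPM, and Uba6 at 1.34 and 0.72 TPM, below 1 TPM in replicate 2. All 8 genes of shuttle factors and of the p97 segregase were detected, among them Vcp, p97 itself, at 555 and 303 TPM. By scaled counts 5 of these 8 were higher in replicate 1 and 3 in replicate 2, and TPM gave the other direction for some of them, Ubqln1 and Nploc4 included. Of 9 partners outside the symbol rule, all 9 were detected, 5 higher in replicate 1, 2 in replicate 2 and 2 not past the test. The deubiquitinases on the particle were Uchl5 at 592 and 500 TPM and Usp14 at 13.4 and 92.6 TPM, the latter 8.28-fold higher in replicate 2 by scaled counts. These levels came from 4867 and 8123 counts of Uchl5 and 725 and 9923 counts of Usp14. In replicate 2 Uchl5 thus had fewer counts and the higher TPM, so its level rests on a shorter counted length. The effect of that length was not tested. The 4 genes of the NRF1 pathway, through which cells raise proteasome genes when the particle is short, were all detected, with Nfe2l1, which encodes NRF1, at 29.1 and 37.5 TPM. Of these 4, 3 were higher in replicate 2 by scaled counts, by 1.16-fold to 2.18-fold, where 43.3% of all genes tested were. Ngly1 did not pass the test. Of the 3, Ddi2 was higher in replicate 1 by TPM, at 20.5 against 16.4 TPM.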

How the data were processed

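RNA was measured in 2 libraries of 1 group. Reads were aligned to mm10 and quantified on GENCODE M4, per the deposited tables' accompanying notes, with aligner and quantifier not given in the sources used here. The deposited expected counts are estimated fragments per gene, not normalised; 7 of the 50 genes have counts that are not whole (tolerance 0.005). The authors' TPM and FPKM values are scaled to effective length, per the file headers. The authors' transcript tables give each transcript's percent of its gene's TPM. Names, biotypes and coordinates came from GENCODE M21 on GRCm38, so gene models may differ from those counted; 5 of 224 transcripts were not matched.

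Expected counts were rounded and tested between libraries for genes with a summed count of at least 20 (exact binomial test, SciPy 1.17.1, Benjamini-Hochberg at 0.05; TMM sizes from edgeR 4.0.16; prior count 2 in ratios). A quasi-likelihood fit in edgeR would leave no replicates on either side from which to estimate spread. The script was checked on simulated counts. Log2 ratios of TPM used a pseudocount of 1, which understates ratios of low genes. Intervals are exact (Poisson or Clopper-Pearson) and, like the limit of 3 counts, cover counting error only. Every gene of the symbol rule and of the partner lists could be named. The genes, lists and motifs were chosen with earlier results of these data known; the longer antioxidant element and the ETS, GATA and nuclear respiratory factor motifs were added later than the others. Paaf1 was listed as a partner and was not analysed here, and values of some other listed genes are not reported here.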

Additional observations from a re-analysis of the deposited data

How the results depend on the processing

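The order within the catalytic pairs held under every alternative run: other pseudocounts, FPKM, posterior mean values, counts without length, and coding transcripts alone (chosen after seeing the data). The log2 ratio of Psmb5 to Psmb8 was 7.51, and 9.68 with a pseudocount of 0.1, 7.41 with posterior means, 7.34 with FPKM and 10.73 with counts not divided by length. Leaving out a library gave 7.46 to 7.56 for this pair, 5.38 to 7.81 for Psmb6 to Psmb9 and -2.996 to -0.85 for Psmb7 to Psmb10. The median level was 23.1 to 51.3 TPM and the SD over the 31 subunits 1.95 to 2.12 (log2) with a library left out, and 45 genes were detected in either. No gene was 2-fold higher in replicate 1 in the scaled counts, but 4 were with total counts, 2 without a filter on low counts and 9 by TPM, a measure added after seeing the data. The median log2 ratio between the libraries was -0.15, and turned to 0.024 with total counts and 0.12 by TPM. Total counts moved the median of all genes from -0.06 to 0.11 and the share of calls higher in replicate 1 from 46.4% to 55.3% of all and from 45.2% to 53.5% of proteasome genes. They turned Psmd9 and changed the call of Psma2, Psmc1, Psmd10, Psmd11 and Psmd14. DESeq2 size factors and no filter each removed the call of Psmd9. No paired analysis was possible because there is 1 group. The depth limits Psmb8, Psmb9 and Psme2b, with at most 23 counts in a library.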
